A study of Sinohyriopsis cumingii with 10 samples.

Results

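The late pearl sac, at 14 and 30 d after implantation, was set against the pearl sac at 48 h, 96 h and 7 d, here called the middle phase. The comparison uses 5 of the 10 libraries of a time course in the freshwater pearl mussel Sinohyriopsis (Hyriopsis) cumingii: 2 late and 3 middle libraries. They were grouped by their labelled time, and the comparison was chosen with earlier results of these data known. Each library is 1 time point, so neighbouring times stood in for replicates, and the spread within a phase holds real change over time as well as differences between animals. Both phases share the implantation, and per the labels the mussels were 2 years old with shells 9 to 10 cm long. The labels name the tissue pearl sac at every time and do not say whether a library held 1 mussel or a pool, so p-values measure only the spread between these libraries. RNA was read as fragments of cDNA and counted on assembled transcript pieces (contigs) that carry no gene names in the files. The labelled tissue could therefore not be checked against marker genes, and no gene, pathway or sequence can be named. Of 211674 contigs, 211508 could be read in every file, and 54183 of these (25.6%) had enough reads in the 5 libraries to be tested.

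A pearl sac forms when mantle tissue is grafted into a host mussel and its outer epithelium spreads and closes into a pouch. In the closing phase blood cells of the host gather at the graft and the wound heals. Once closed, the sac epithelium secretes an organic matrix rich in proteins and lays down calcium carbonate on it, the step for which the tissue is known in pearl culture.

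The late libraries held 21832031 reads at 14 d and 21263413 at 30 d, against 21538393 at 48 h, 20315910 at 96 h and 21676889 at 7 d. Depth thus differed little, but the scaling factors set the libraries apart. TMM, which scales each library so that most contigs come out unchanged, gave factors of 0.946 at 14 d and 0.793 at 30 d, against 1.08 at 48 h, 0.974 at 96 h and 1.27 at 7 d. The late minus middle change of the median contig was 0.01 on the log2 scale under TMM, and -0.34 with libraries scaled by their total counts. Directions are therefore given under both scalings. Across the 54183 contigs, Spearman's correlation was 0.82 between 14 and 30 d, 0.72 to 0.79 between 14 d and the middle libraries, 0.69 to 0.75 between 30 d and the middle libraries, and 0.89 to 0.92 within the middle phase. These are descriptions across contigs of the same libraries, and contigs are not independent replicates.

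The first question was which contigs lay apart in both late libraries as a group. Under TMM, 2522 contigs were higher late (4.65% of those tested) and 1256 were lower (2.32%) in edgeR's quasi-likelihood test with Benjamini-Hochberg adjustment at 0.05, and 66.8% of the 3778 calls were higher. With total counts the majority turned: 1747 were higher (3.22%) and 2789 lower (5.15%), so that 38.5% were higher. Under both scalings and in the same direction, 1657 contigs were higher and 1256 lower late, and none was called in opposite directions. The lowest adjusted p under TMM was 0.0326, and 16764 contigs had an unadjusted p under 0.05. No contig passed when the 48 h, the 96 h or the 7 d library was left out, with 12009, 11397 and 13664 contigs at an unadjusted p under 0.05. No contig passed with limma-voom (lowest adjusted p 0.0563, 15240 contigs at an unadjusted p under 0.05). DESeq2 called 7517. With 14 d or 30 d left out a single late library remained, so those fits cannot show whether the same contigs hold in both late libraries.

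**Figure D1:**
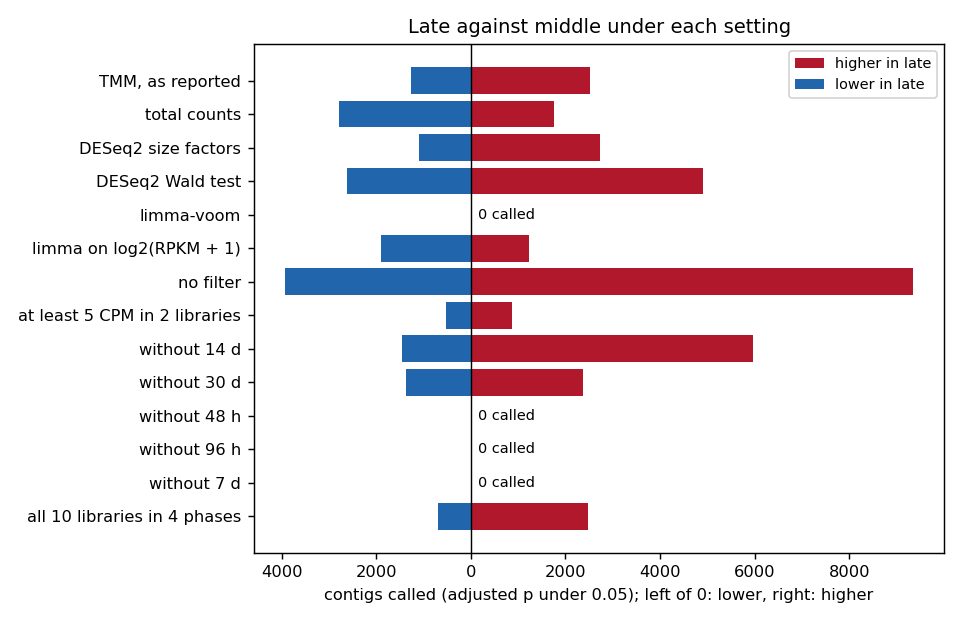
Number of contigs called between the late and middle phases (adjusted p under 0.05, x axis) under each setting (y axis). Red bars to the right count contigs higher late and blue bars to the left count contigs lower late: the larger side is the right under TMM (2522 against 1256) and the left with total counts (1747 against 2789), and no bar is drawn for limma-voom or without 48 h, 96 h or 7 d.

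All of the 2522 higher contigs had both late libraries above all 3 middle ones under both scalings, and all of the 1256 lower contigs had both below. Such separation was common without a call: under both scalings 7277 tested contigs (13.4%) lay above all middle libraries and 13927 (25.7%) below. Under TMM alone 12442 (23.0%) lay above. The median contig called higher had a log2 change of 2.84, and 2049 of the 2522 were at least 4-fold and 537 at least 16-fold higher late. Among the lower contigs the median log2 change was -2.05, with 667 at least 4-fold and 30 at least 16-fold lower. These medians and counts set contigs without reads on 1 side at a floor of 3 reads over that phase. There were 27 contigs called higher with 0 reads in all 3 middle libraries, which were at least 13.9-fold to at least 87.2-fold higher late. Another 18 contigs were called lower with 0 reads in both late libraries, at least 4.92-fold to at least 17.3-fold lower.

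The 2 called sets differed in how they stood in the first day, which the test did not use. Contigs called higher late held 3.51% of all reads at 14 d and 6.56% at 30 d, against 0.828% at 48 h, 0.709% at 96 h and 1.06% at 7 d. Before the middle phase they had held 3.68, 3.07 and 3.58% at 0, 2 and 6 h, and 2.14 and 1.87% at 12 and 24 h. By share of reads they were thus lower in the middle phase than at the start. Low middle values were part of how they were called, so this is a description only. Their median CPM with total counts was 1.06, 0.633 and 0.830 at 0, 2 and 6 h. At 48 h, 96 h and 7 d it was 0.464, 0.443 and 0.739, so 2 h lay below 7 d. Under TMM the median was 1.52, 0.890 and 1.39 at 0, 2 and 6 h. In the middle phase it was then 0.347, 0.367 and 0.457, so 2 h lay above 7 d. Over all tested contigs the median at 2 h and 7 d was 0.859 and 1.85 with total counts. Under TMM it was 1.21 and 1.14. Over all 10 libraries under TMM, 1328 of the 2522 had their highest value at 30 d and 531 at 14 d, while 346 were highest at 0 h, 199 at 6 h and 85 at 2 h. Of all 54183 tested contigs, 6486 were highest at 30 d and 7421 at 14 d. At 0, 6 and 2 h these numbers were 6476, 4064 and 4936. With total counts 1337 of the 2522 were highest at 30 d and 877 at 14 d, and 135, 66 and 69 at 0, 6 and 2 h. Among all tested contigs, total counts gave 6040 and 10251 at 30 and 14 d. At 0, 6 and 2 h they gave 1431, 748 and 1551. Contigs called lower late held 0.343% of the reads at 14 d and 0.270% at 30 d, against 2.02% at 48 h, 1.55% at 96 h and 1.63% at 7 d. Their share was 0.223, 0.570 and 0.258% at 0, 2 and 6 h and 1.31 and 1.35% at 12 and 24 h, so it was high from 12 h to 7 d and low on either side. The middle and late part of this pattern was set by the call. Of the 1256, the highest TMM value was at 12 or 24 h in 352 and 310 contigs, at 48 or 96 h in 235 and 183, at 7 d in 74 and at 2 h in 94. Over all tested contigs these numbers were 6997, 7049, 3879, 3657, 3218 and 4936, in the same order. With total counts the order differed for the 1256, with the highest value at 48 h in 409 and at 7 d in 403. Among all tested contigs these were 7687 and 14960.

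By level per length, calls were spread over the whole range. RPKM, which scales reads by contig length and library total, is the deposited value that can be compared between contigs. Among 733 contigs with a mean of 100 RPKM or more over the 5 libraries, 48 (6.55%) were higher late and 9 (1.23%) lower. Of the 4501 contigs from 10 to 100 RPKM, 5.60% were higher and 2.31% lower. The shares were 4.22% higher and 2.70% lower among 33275 contigs from 1 to 10 RPKM, and 5.21% and 1.55% among 15674 contigs under 1 RPKM. Contigs called lower were long, with a median of 1851.5 bases, against 1156.5 bases for those called higher and 1080 for the contigs not called. Among 4041 contigs of 4000 bases or more, 2.10% were higher and 4.06% lower, whereas under 500 bases 3.67% were higher and 1.22% lower. The median reads per contig over the 5 libraries was 275.6 in the longest class and 16.6 in the shortest, so reads per contig moved with length, and the part of either in these shares was not tested.

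A pair of contigs of each direction was picked by lowest p, where the mean over the 5 libraries reached 1 CPM (reads scaled to one common total for all libraries). contig000650 (1971 bases) had 233 reads at 14 d and 203 at 30 d, against 0 at 48 h, 0 at 96 h and 1 at 7 d. In the first day it had 0 to 3 reads per library, so it was close to absent before 14 d at this depth. Its fitted log2 change was 9.21 ± 0.62 (SE; edgeR adjusted p = 0.0326), a value that depends on the prior count because the middle phase held 1 read. contig213459 (1465 bases) was at 5.18 CPM at 14 d and 7.82 at 30 d, against 0.0464 at 48 h, 0.0492 at 96 h and 0.0923 at 7 d, which were 1, 1 and 2 reads. Its highest earlier value was 0.678 CPM at 2 h, and its log2 change was 6.95 ± 0.51 (SE; edgeR adjusted p = 0.0326). Both late libraries of either contig were far above every other library of the series.

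contig288858 (131 bases) was at 0.779 CPM at 14 d and 0.471 at 30 d, against 8.22 at 48 h, 8.47 at 96 h and 9.05 at 7 d. The 3 middle values lay close together and the late ones well below, with a log2 change of -3.44 ± 0.37 (SE; edgeR adjusted p = 0.0355). In the first day it ranged from 0.876 CPM at 6 h to 3.80 at 2 h. contig134914 (374 bases) was at 1.83 CPM at 14 d and 1.27 at 30 d, against 35.7 at 48 h, 29.9 at 96 h and 21.3 at 7 d. Its log2 change was -3.91 ± 0.46 (SE; edgeR adjusted p = 0.0367), and it was uneven earlier, with 4.37 CPM at 0 h, 58.1 at 12 h and 7.15 at 24 h. The 4 contigs were picked for phases that do not overlap, so their direction could hardly turn under other settings. That it was kept in all 52 values under those settings is no further support, and 36 of these passed. The 16 that did not pass were those of limma-voom and of the fits without 48 h, 96 h or 7 d, and adjusted p reached 0.167.

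**Figure D2:**
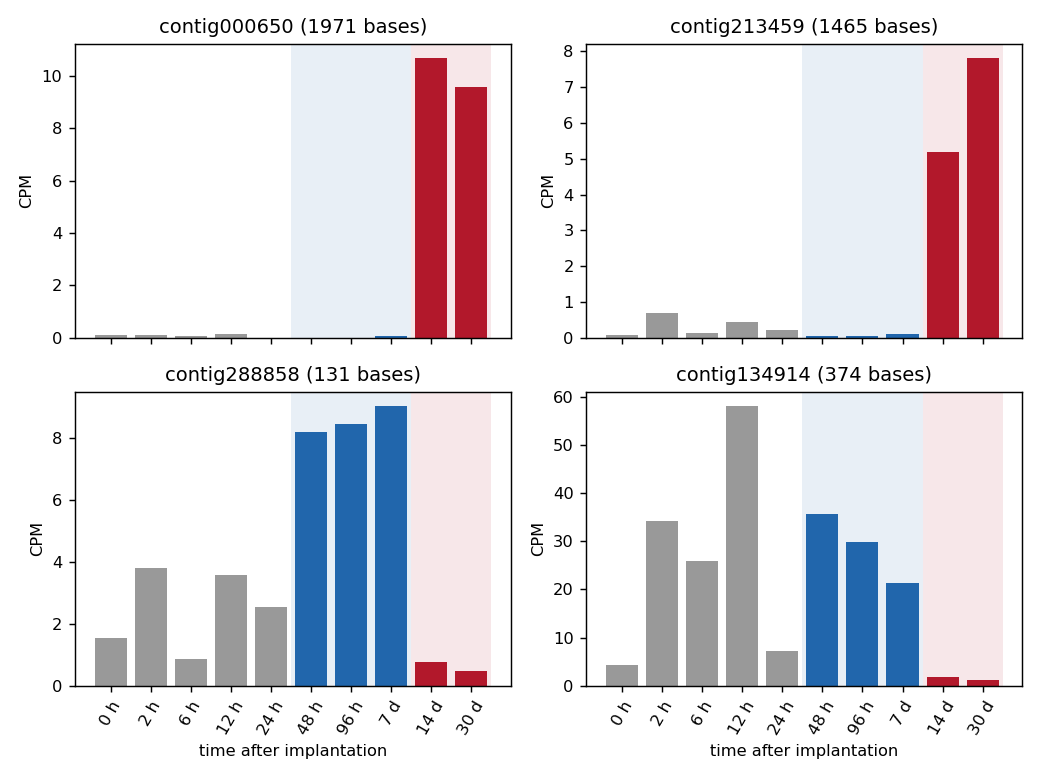
CPM (y axis, linear from 0) in each of the 10 libraries in order of time (x axis) for the 2 contigs of lowest p in each direction that met the level and overlap limits, 1 library per bar. Red bars are the late libraries, blue bars the middle ones and grey bars the first day: contig000650 stood at 10.7 and 9.56 CPM late, while contig134914 stood at 1.83 and 1.27 late, below its middle values of 21.3 to 35.7.

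The second question was which changes were seen in both late libraries and which at 30 d alone. These classes are values with fixed limits and no test: at least 4-fold from the middle mean with a prior of 1 CPM, and for a class of 1 time the other late library within 2-fold. The 14 d and 30 d values share the same 3 middle libraries, so a middle library that is off moves both. Under TMM, 228 contigs (0.421% of those tested) were at least 4-fold higher in both late libraries and 127 (0.234%) at least 4-fold lower in both. At 30 d alone 914 contigs (1.69%) were higher and 100 (0.185%) lower, and at 14 d alone 181 (0.334%) were higher and 94 (0.173%) lower. With total counts the classes of both late libraries turned in order, with 142 higher and 214 lower. At 30 d alone total counts gave 646 higher and 212 lower, and at 14 d alone 139 higher and 92 lower. Of the TMM classes, total counts kept 142 of the 228 higher in both, 127 of the 127 lower in both, 584 of the 914 higher at 30 d alone and 76 of the 100 lower at 30 d alone. Without 48 h the class lower in both held 74 contigs, and without 7 d the class higher in both held 361.

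**Figure D3:**
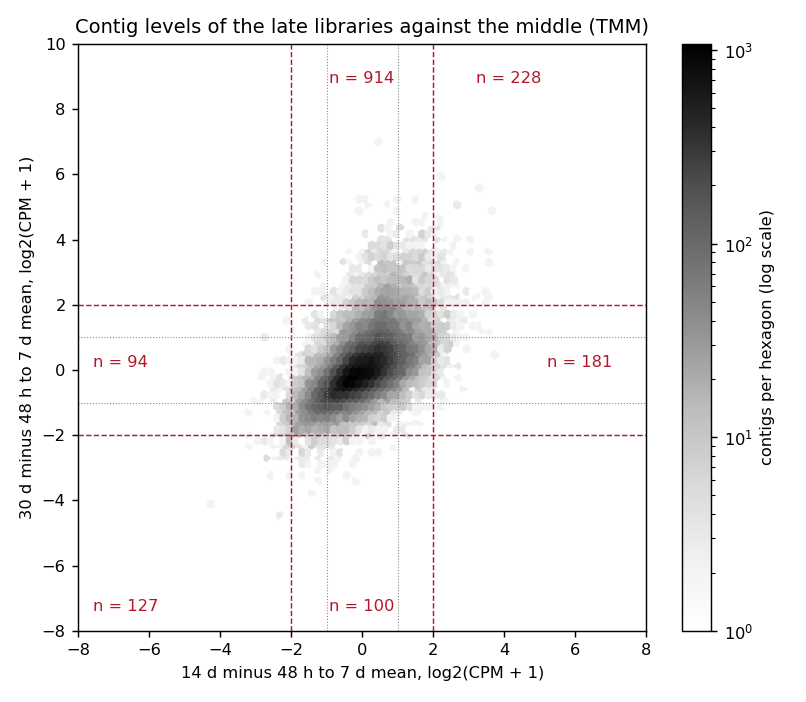
Difference of the 14 d library (x axis) and of the 30 d library (y axis) from the mean of 48 h, 96 h and 7 d on the log2(CPM + 1) scale under TMM, with contigs counted per hexagon on a log grey scale. Dashed lines mark 4-fold and dotted lines 2-fold; the band above 4-fold at 30 d and within 2-fold at 14 d holds 914 contigs, the top right corner 228 and the bottom left corner 127.

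In the class higher at 30 d alone the median difference was 2.58 at 30 d and 0.52 at 14 d, and the 14 d library was above all 3 middle libraries in 606 of the 914 and below all 3 in 44. Over all tested contigs 14 d was above all 3 in 37.5% and below all 3 in 37.8%. With total counts 14 d was above in 453 and below in 70 of the 914, where 28.6% and 43.6% of all tested contigs were. Since the class was chosen against the same middle libraries, these counts are a description only. In the class lower at 30 d alone the medians were -2.35 at 30 d and -0.48 at 14 d. The 14 d library was below all middle libraries in 43 of the 100 and above all in 11. With total counts these numbers were 59 and 3. The share below was thus near that of all tested contigs under TMM and larger than it with total counts. The share above was smaller than that of all tested contigs under both scalings, again a description only. In the class higher in both, the medians were 2.52 at 14 d and 3.24 at 30 d. In the class lower in both they were -2.47 at 14 d and -2.65 at 30 d. Opposite moves were rare: 3 contigs were at least 4-fold higher at 14 d and 4-fold lower at 30 d, and 17 were lower at 14 d and higher at 30 d. Taking each library by itself, 1790 contigs were at least 4-fold higher and 379 lower at 30 d, and 562 were higher and 387 lower at 14 d. With total counts these numbers were 1214 and 776 at 30 d, and 384 and 565 at 14 d.

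Followed over the whole course, the classes had unlike histories. Each class was chosen by its middle and late values, so these are descriptions only. Contigs higher in both late libraries had a median of 21.3 CPM at 14 d and 42.1 at 30 d under TMM, against 1.26 at 48 h, 1.79 at 96 h and 2.97 at 7 d. At 0 h the median was 13.9 CPM and at 6 h 12.9. With total counts it was 9.68 at 0 h and 7.70 at 6 h, against 26.3 at 14 d and 43.3 at 30 d. How near the start lay to the late phase thus moved with the scaling. By reads the order differed. The class held 4.34% at 14 d and 6.77% at 30 d, against 0.424% to 0.983% in the middle phase. At 0, 2 and 6 h it held 5.08, 4.61 and 6.90%. These shares rest on few contigs: a single one held 20.1% of the class's reads at 30 d. The 5 with most late reads stood at 4382 to 8107 CPM each at 0 h with total counts. Of the 228, 103 were highest at 30 d and 37 at 14 d, and 33, 17 and 35 were highest at 0, 2 and 6 h under TMM. With total counts these numbers were 108 and 64, and 16, 14 and 21. Over all 54183 tested contigs under TMM, 6486 were highest at 30 d and 7421 at 14 d. At 0, 2 and 6 h they were 6476, 4936 and 4064. Contigs higher at 30 d alone had a median of 9.96 CPM at 30 d and 1.19 at 14 d, against 0.572 at 48 h, 0.570 at 96 h and 0.771 at 7 d. Their median from 0 to 12 h was 1.46 to 1.70 CPM, and 739 of the 914 had their highest library of all 10 at 30 d. Their share of reads told another story, with 11.5% at 30 d and 2.15% at 14 d, against 1.22% to 2.66% in the middle phase and 8.73% to 13.3% from 0 to 24 h. That share rests on few contigs: a single one held 24.5% of the class's reads at 30 d.

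Contigs lower in both late libraries had a median of 3.19 CPM at 14 d and 2.10 at 30 d under TMM, against 33.3 at 48 h, 26.1 at 96 h and 12.9 at 7 d. They started low, at 2.34 CPM at 0 h, and were at 20.1 at 12 h and 24.2 at 24 h. Contigs lower at 30 d alone had a median of 3.36 CPM at 30 d and 16.5 at 14 d, against 21.9 to 26.1 in the middle phase, and 5.03 at 0 h. The 14 d library of this class was thus close to the middle, by its definition, and its 30 d level was close to that of 0 h. Contigs higher at 14 d alone had a median of 11.9 CPM at 14 d and 2.88 at 30 d, against 1.42 to 1.91 in the middle phase. Of the 181, 160 were highest at 14 d, where 7421 of the 54183 tested contigs were highest. Contigs lower at 14 d alone had a median of 2.32 CPM at 14 d and 13.7 at 30 d, against 10.4 to 20.9 in the middle phase.

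**Figure D4:**
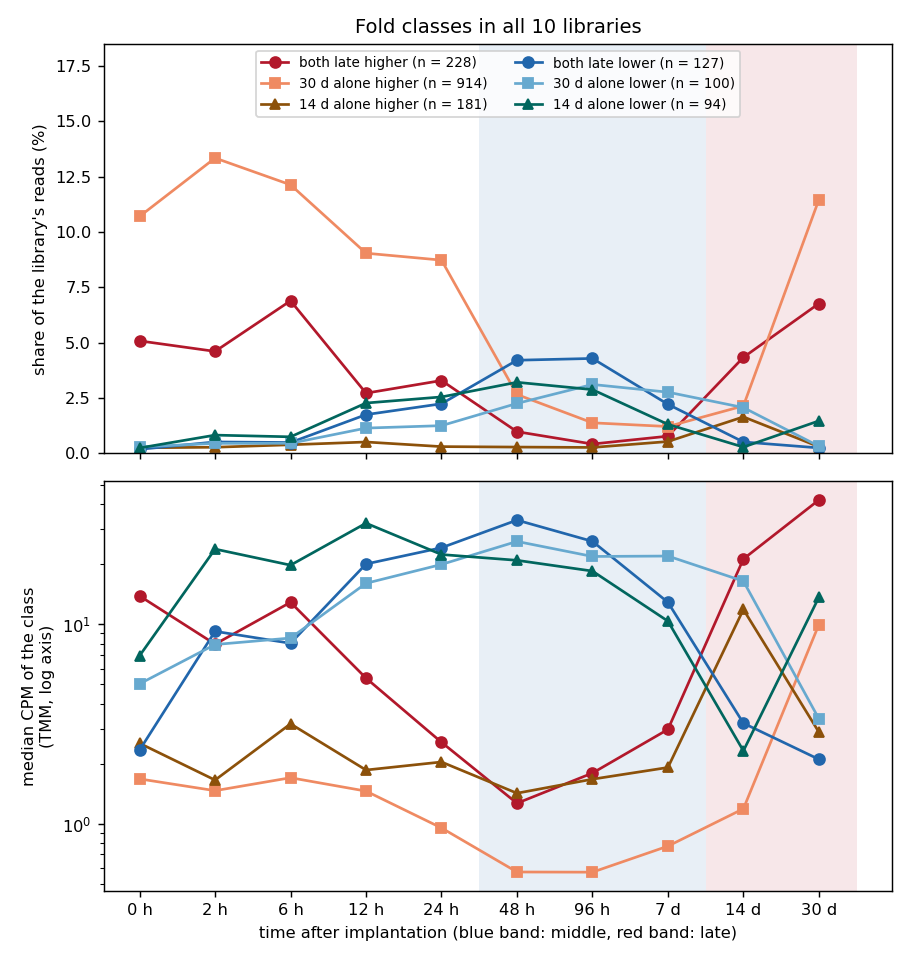
Share of each library's reads (top, %) and median CPM under TMM (bottom, log axis) of the 6 fold classes in the 10 libraries in order of time (x axis), with 1 library per point and the middle and late phases shaded blue and red. The class higher at 30 d alone held 11.5% of the reads at 30 d and 10.7% at 0 h, while its median was 9.96 CPM at 30 d and 1.68 at 0 h.

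For each class the 5 contigs with most reads, counted where the class is high, were examined, and those described were picked after their values were seen. In the class lower at 30 d alone none of the 5 passed for 30 d against the middle (edgeR adjusted p from 0.0982 to 0.203). In the class higher in both, 2 of the 5 passed the late test under TMM (edgeR adjusted p from 0.0428 to 0.0586). With total counts all 5 passed (edgeR adjusted p from 0.0326 to 0.0463). The first by reads, of 1276 bases, is described with the most abundant contigs. The third, of 404 bases, was at 1130 CPM at 14 d and 5100 at 30 d, against 367 at 48 h, 115 at 96 h and 256 at 7 d. Both late libraries were above all middle ones, its log2 change was 4.12 ± 0.85 (SE; edgeR adjusted p = 0.0428), and it had been at 6374 CPM at 0 h. In the class higher at 30 d alone, 2 of the 5 passed for 30 d against the middle (edgeR adjusted p from 0.0250 to 0.112). The second by reads, of 767 bases, had the lowest of these and was at 8848 CPM at 30 d and 614 at 14 d, against 1227 at 48 h, 629 at 96 h and 451 at 7 d. Here 14 d lay within the range of the middle phase and 30 d above it, with 7041 CPM at 0 h. The third, of 1941 bases, did not pass (edgeR adjusted p = 0.112 for 30 d) and was at 7843 CPM at 30 d and 697 at 14 d, against 2475, 701 and 277 at 48 h, 96 h and 7 d.

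In the class lower in both, none of the 5 passed the late test under TMM (edgeR adjusted p from 0.0516 to 0.0800). With total counts adjusted p ran from 0.0340 to 0.05003, and only the first by reads did not pass (edgeR adjusted p = 0.05003). The first by reads, of 685 bases, was at 1133 CPM at 14 d and 140 at 30 d, against 6428 at 48 h, 10826 at 96 h and 5306 at 7 d (edgeR adjusted p = 0.0381 for 30 d). The late libraries lay below all middle ones, and at 0 h this contig stood at 70.0 CPM. The third, of 5135 bases, was at 649 CPM at 14 d and 117 at 30 d, against 2752 at 48 h, 4878 at 96 h and 2966 at 7 d, with the same order of phases (edgeR adjusted p = 0.0369 for 30 d). In the class higher at 14 d alone, 1 of the 5 passed for 14 d against the middle (edgeR adjusted p from 0.0333 to 0.159). The first by reads, of 3117 bases, did not pass and was at 3771 CPM at 14 d and 695 at 30 d, against 500, 570 and 2437 at 48 h, 96 h and 7 d. The one that passed was the fifth, of 134 bases, at 726 CPM at 14 d and 89.4 at 30 d, against 86.9, 39.2 and 94.2 at 48 h, 96 h and 7 d.

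Tests of each late library by itself used 1 library, assumed to vary like the 3 middle ones. For 30 d against the middle, 3791 contigs were higher (7.00%) and 952 lower (1.76%) in edgeR's quasi-likelihood test under TMM, and total counts gave 2658 and 2733. For 14 d against the middle, 1952 were higher (3.60%) and 729 lower (1.35%), and total counts gave 1176 and 980. Without 96 h no contig passed at either time, and without 7 d 9980 contigs passed at 30 d and 10811 at 14 d. The contrast of 30 d with 14 d set 1 library against 1, with 2 residual degrees of freedom that come from the 3 middle libraries alone. No contig passed under TMM (0.00%; edgeR lowest adjusted p = 0.0939), with 8412 at an unadjusted p under 0.05. Total counts gave 80 contigs, 57 higher and 23 lower at 30 d, DESeq2 962, limma-voom 4 and limma on log2(RPKM + 1) 415, while the fit without 7 d gave 2523. Neither late time has a spread of its own, so this contrast says little about whether 30 and 14 d differ, and the classes of 1 time describe single libraries.

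The most abundant contigs were looked at apart. The 50 contigs with most reads over the 5 libraries held 24.5% of the reads at 14 d and 25.8% at 30 d, against 23.4% at 48 h, 25.6% at 96 h and 22.4% at 7 d. None of the 50 was called under TMM (edgeR lowest adjusted p = 0.0537), and total counts called 1 higher and 2 lower. Late and middle libraries did not overlap under both scalings in 13 of the 50, with 7 above (14% of the 50) and 6 below (12%). Over all tested contigs these shares were 13.4% and 25.7%, so such separation was no more common among the most abundant contigs. The contig ranked 7th, of 1276 bases, was at 14364 CPM at 14 d and 13644 at 30 d, against 3544 at 48 h, 814 at 96 h and 2168 at 7 d. It was the one higher call with total counts (edgeR adjusted p = 0.0455), with a log2 change of 3.06 ± 0.76 (SE) under TMM, where its adjusted p was the 0.0537 above. The contigs ranked 28th (857 bases) and 34th (3011 bases) were the lower calls. The 28th was at 711 CPM at 14 d and 194 at 30 d, against 7619, 6881 and 2176 at 48 h, 96 h and 7 d (edgeR adjusted p = 0.0400 with total counts). The 34th was at 1172 CPM at 14 d and 778 at 30 d, against 4812, 5138 and 3813 (edgeR adjusted p = 0.0454 with total counts).

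Of the others above the middle, the contigs ranked 2nd (834 bases) and 3rd (2545 bases) were higher at 30 d than at 14 d and higher still in part of the first day, with 7516 CPM at 14 d and 28035 at 30 d for the 2nd, against 7086, 3170 and 2757 at 48 h, 96 h and 7 d, and 33493 CPM at 6 h. The 3rd was at 10608 CPM at 14 d and 21105 at 30 d, against 7825, 3473 and 2092, and at 53473 CPM at 0 h. The contigs ranked 4th (5435 bases) and 5th (5948 bases) were highest at 14 d of all 10 libraries. The 4th was at 18416 CPM at 14 d and 11080 at 30 d, against 2836, 3452 and 7109, and at 5485 CPM at 0 h. The 5th was at 17069 CPM at 14 d and 7613 at 30 d, against 2355, 3343 and 7127. The contig with most reads, of 1299 bases, did not separate the phases, with 27968 CPM at 14 d and 26510 at 30 d, against 23108, 30937 and 39350.

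**Figure D5:**
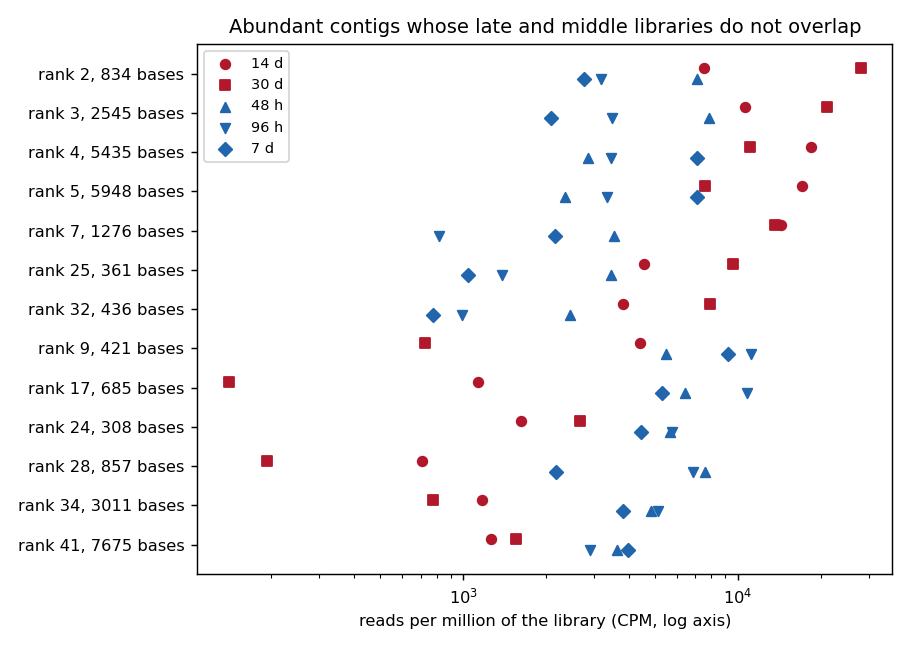
CPM by total counts (x axis, log scale) of the 13 among the 50 contigs with most reads whose late and middle libraries do not overlap under both scalings, 1 contig per line with its rank by reads and its length. Red symbols are 14 and 30 d and blue symbols 48 h, 96 h and 7 d: the upper 7 lines have both late values to the right of all middle ones and the lower 6 to the left.

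Contigs with reads in 1 phase only were counted over all 211508 readable contigs, tested or not, with a minimum of 10 reads. There were 29 with at least 10 reads in both late libraries and 0 in all 3 middle ones, and 5 the other way round. One of the 29 had 0 reads in all 8 other libraries. By contrast, 297 contigs had at least 10 reads at 30 d and 0 in the other 4 libraries, against 28 at 14 d, 33 at 48 h, 7 at 96 h and 23 at 7 d. Of the 297, 131 had 0 reads in all 9 other libraries, and of the 28 at 14 d 6 did. Whether such contigs are mussel transcripts was not tested, since the files give no sequences.

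Measures of whole libraries could not separate the phases by a test. Contigs with at least 1 read numbered 158877 at 14 d and 147461 at 30 d, against 160375 at 48 h, 147183 at 96 h and 169087 at 7 d (exact permutation test, two-sided p = 0.6). The mean late minus middle difference was -5712.7 contigs, and -4.7 without 30 d. The reads were gathered on fewer contigs late: 248 contigs held 50% of the reads at 14 d and 171 at 30 d, against 330 at 48 h, 263 at 96 h and 394 at 7 d. Both late values lay below all middle ones, and the exact permutation test gave p = 0.2 (two-sided), the smallest p that 2 against 3 libraries can give. For 75% of the reads the phases overlapped, with 1645 contigs at 14 d and 1636 at 96 h (exact permutation test, two-sided p = 0.4). In libraries of bulk tissue, fewer cells of a type and less RNA per cell cannot be told apart, and this holds for every change above.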

How the data were processed

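The members and comparisons were chosen with earlier results of these data known. Each deposited file lists contigs with reads and RPKM, per the file headers. The reads deposited by the authors were taken to be expected counts: all were whole except 0.5, found only where RPKM was 0, which was read as 0. Contig lengths were derived from reads and the authors' RPKM, and came out whole to a relative distance of 5.6e-08. The sources used here name no assembler, aligner or counting tool. Per the labels, libraries were made without a stated strand mark or molecular identifier. In the 30 d file 1 line is unreadable. Its 166 contigs (0.105% of the 30 d reads) were left out of all libraries.

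edgeR 4.0.16 (R 4.3.3) was run with filterByExpr on 2 phases (3 residual degrees of freedom) and, for single late libraries, on 3 levels (2 residual degrees of freedom), with SE from the F statistic and Benjamini-Hochberg adjustment. Alternatives were total counts, DESeq2 size factors (edgeR's own version, with edgeR's test) and the Wald test of DESeq2 1.42.0. Others were limma 3.58.1 (voom, or log2(RPKM + 1)), 2 other filters, libraries left out and all 10 libraries. Profiles over all 10 libraries used TMM factors of all 10. The scripts were tested on simulated data. Named contigs were the 2 lowest p of each direction, with a mean over the 5 libraries of 1 CPM or more and phases not overlapping under both scalings. Other contigs are given by rank of reads. Several contigs may belong to 1 gene, and reads of near-identical copies may be split between them.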

Additional observations from a re-analysis of the deposited data

Results flagged for a closer look

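A signal appeared in contigs that no comparison used. The 166 contigs that cannot be read in the 30 d file summed to 979.6 CPM at 14 d and, from the full total of that library, 1054 CPM at 30 d, against 414 at 48 h, 339 at 96 h and 564 at 7 d. The late mean was 2.32 times the middle mean, and both late sums lay above all middle ones. Which of the 166 contigs carry the 30 d reads cannot be read from the file. With 2 and 3 libraries the groups were too small to look for a library far from the others of its group.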

How the results depend on the processing

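The late against middle count of 3778 was 7517 with DESeq2, 0 with limma-voom, 13268 with no filter and 1392 where 5 CPM in 2 libraries was required (14855 contigs). Over the libraries left out it ran from 0 (without 48 h, 96 h or 7 d) to 7414 (without 14 d). It stayed within 1.5 times with total counts, DESeq2 size factors, limma on log2(RPKM + 1) and all 10 libraries. The contigs called were not all the same: in that order, 2913, 3606, 2097 and 2432 of the 3778 were called again. The share of calls that were higher late, 66.8%, turned to 38.5% with total counts and 39.2% with limma on log2(RPKM + 1). It was 77.8% with all 10 libraries, 63.4% without 30 d and 80.3% without 14 d, and 56.9% of the 2913 contigs called under both scalings, a count added after seeing the data. For 30 d against the middle the share turned from 79.9% under TMM to 49.3% with total counts, and the count of 4743 was 15733 with no filter, 1425 at 5 CPM, and 0 (without 96 h) to 9980 (without 7 d) over the libraries left out. For 14 d against the middle the count of 2681 was 1710 with limma-voom, 1313 with limma on log2(RPKM + 1), 10985 with no filter, 831 at 5 CPM, and 0 (without 96 h) to 10811 (without 7 d). For 30 d against 14 d the count of 0 was 80 with total counts, 962 with DESeq2, 4 with limma-voom, 415 with limma on log2(RPKM + 1) and 4680 with no filter, and 0 to 2523 (without 7 d) over the libraries left out.

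The class higher in both late libraries, 228, held 142 contigs with total counts, 1261 and 84 with priors of 0.1 and 5 CPM, and 1828 at a 2-fold limit, and 214 to 361 over the libraries left out. The class lower in both, 127, held 214, 584, 50 and 1798 in the same order, and 74 to 188. The class higher at 30 d alone, 914, held 395 at a prior of 5 CPM and 3628 at 2-fold, and the class lower at 30 d alone, 100, held 212 with total counts, 683 and 41 with the priors of 0.1 and 5 CPM, and 1788 at 2-fold. The late minus middle difference in detected contigs, -5712.7, rested on single libraries: it was -4.7 without 30 d, -610 without 7 d, -11562 without 96 h and -11420.7 without 14 d. The difference in contigs that hold 50% of the reads, -119.5, ran from -158 to -81 over the libraries left out, and for 25% and 75% of the reads, which are other quantities, it was -18.3 and -668.8. What made these values move was not tested.

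With 1 library per time there is no true replicate, and the labels give no replicate number, so no pairing was available. Depth limits the contigs of few reads most: those under 1 RPKM had a median of 15.1 reads over the 5 libraries.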
